A study of Rattus norvegicus with 72 samples.

Results

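The dorsal vagal complex (DVC) of rats killed 3 h after lights on (ZT3) was compared with the DVC of rats killed 5 h after lights on (ZT5), across 145 transcripts measured by microfluidic qRT-PCR. The samples were chosen by region and time point in their labels, and comprised 7 DVC samples at ZT3 and 17 at ZT5, that is, 24 of the 72 samples of the series. Both groups were male Sprague Dawley rats that had never received alcohol and were housed individually under an undisturbed light cycle. They were fed a restricted amount of an alcohol-free Lieber DeCarli liquid diet, set to the calories that matched alcohol-fed rats had eaten the day before, so neither group is a chow-fed control. No drug or other treatment separated the groups, and each sample was the punched tissue of 1 animal, without pooling. Animals were numbered in the labels, and the 7 killed at ZT3 all had high numbers. At ZT5, 11 animals had numbers in the range of the ZT3 animals or just outside it, and are called higher-numbered here, and 6 had lower numbers. The comparison is therefore also given against the 11 alone.

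The DVC is a brainstem region that receives the sensory signals of the vagus nerve from the viscera and sends autonomic output back to them. It holds the nucleus tractus solitarius, where noradrenergic, GABAergic and glutamatergic neurons lie among astrocytes and microglia. The measured panel covered neurotransmitter receptors, the regulators of G-protein signaling (Rgs) that shorten signaling by G-protein-coupled receptors, the kinases and phosphatases downstream of receptors, and the transcription factors that these kinases act on. The comparison asks whether transcripts of such signaling differ in this region over a few daytime hours.

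A C_T is the PCR cycle at which a product crosses the detection threshold, so 1 cycle less stands for about 2-fold more cDNA. The values used are the deposited quantile-normalized C_T values. The difference between time points is given as −ΔΔC_T, the mean at ZT5 minus the mean at ZT3, and values above 0 mean that ZT3 had the higher expression. Before normalization, the median C_T of a sample averaged 18.70 (SD 0.89, n = 7) at ZT3 and 19.30 (SD 0.82, n = 17) at ZT5 (exact permutation test, two-sided p = 0.123). It averaged 18.84 in the 11 higher-numbered ZT5 animals and 20.15 in the 6 lower-numbered ones. Between 0 and 4 of the 145 reactions failed in a ZT3 sample and between 1 and 6 in a ZT5 sample, and failed reactions were left as missing. The DVC label was checked against the noradrenaline transporter Slc6a2, which was measured in 7 of 7 ZT3 and 16 of 17 ZT5 DVC samples and in 1 of the 33 samples of the central nucleus of the amygdala (CeA). ZT5 replicate 17 stood apart, with a correlation of 0.902 with the mean of the other ZT5 samples, and its second set of assays had a median C_T 1.68 cycles below the first. The other ZT5 samples correlated at 0.930 or more and the ZT3 samples at 0.960 or more with the mean of their group. Within the ZT5 group, the 6 lower-numbered animals differed from the 11 others in 34 of the 145 genes (23.4%) at an unadjusted limma p of at most 0.05. At an adjusted p of at most 0.05 they differed in 6 (4.14%). The comparison of ZT3 with ZT5 given below called 20 (13.8%) and 6 (4.14%) genes at these thresholds.

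The assays of the genes that this comparison turns on are shown first, because a C_T measures what its primer pair amplifies. The primers are the designed oligonucleotides of the study, all in lower case because no part of them is singled out, forward primer first.
Rgs4 forward: caagatgtgcaaaggactcg
Rgs4 reverse: ccagccgatgtttcatatcc
Ptpn2 forward: aggctacaaccgctcagaag
Ptpn2 reverse: catttaggtgtctgtcaatcttgg
Nr4a2 forward: ccacgtcgactccaatcc
Nr4a2 reverse: tagtcagggtttgcctggaa
Hprt forward: gaccggttctgtcatgtcg
Hprt reverse: acctggttcatcatcactaatcac
Ppp2r1a forward: gctacatggtggcagacaaa
Ppp2r1a reverse: tagtgatctcaggcccaactg
Mbd1 forward: tgtgtagaggaggacgagctaa
Mbd1 reverse: tgggtatgatgtggaagcaa

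Of the 145 genes, 6 (4.14%) differed between ZT3 and ZT5 at a limma adjusted p of at most 0.05, and 20 (13.8%) at an unadjusted p of at most 0.05, the threshold of the study. Rgs4 and Mbd1 were lower at ZT3, whereas Hprt, Ptpn2, Nr4a2 and Ppp2r1a were higher, that is, 2 lower (1.38%) and 4 higher (2.76%). Among the 20 genes, 12 were higher at ZT3 (8.28% of the panel) and 8 were lower (5.52%). The median −ΔΔC_T over all 145 genes was 0.02, and 63 genes (43.4%) had a mean difference beyond 0.25 cycles in size, the size threshold of the study. On the normalized scale, 0 of the 145 genes had ZT3 and ZT5 values that did not overlap. Leaving out 1 sample at a time left between 3 and 9 genes at the adjusted threshold. The count fell to 3 without ZT3 replicate 5, where Ptpn2, Ppp2r1a and Mbd1 lost it, and without ZT3 replicate 7, where Ptpn2, Nr4a2 and Mbd1 lost it, and to 4 without ZT3 replicate 6, where Ppp2r1a and Mbd1 lost it. It rose to 9 without ZT5 replicate 17.

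**Figure D1:**
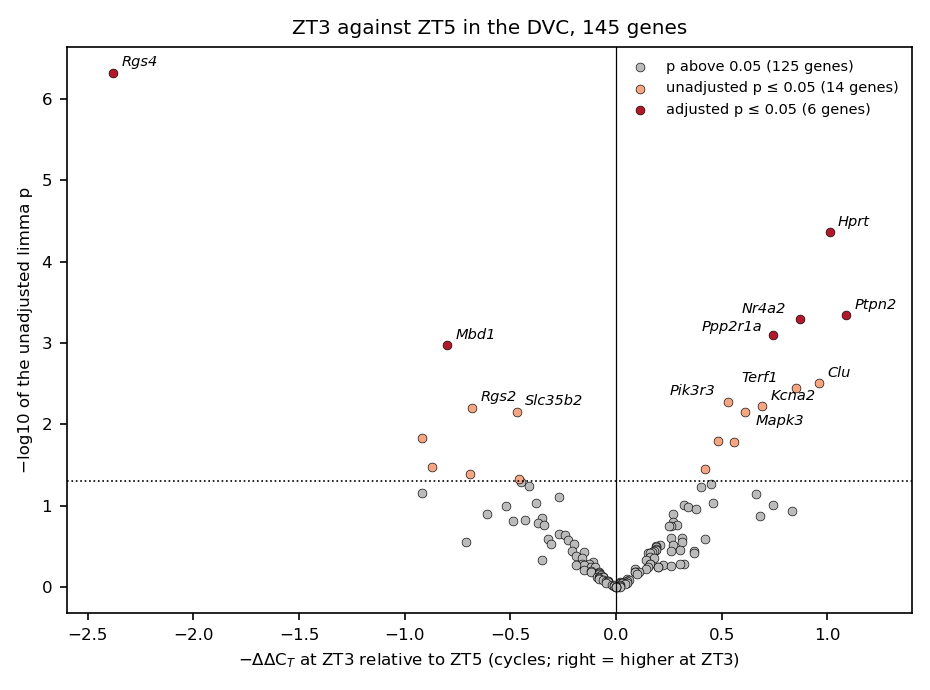
−ΔΔC_T at ZT3 relative to ZT5 in the DVC (horizontal axis, cycles) against −log10 of the unadjusted limma p (vertical axis) for the 145 genes, with 1 point per gene and a dotted line at p = 0.05. Rgs4 lies alone on the left at -2.38, and 12 of the 20 genes above the line lie to the right of 0.

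Rgs4, whose product accelerates the GTPase activity of Gi and Gq proteins and is abundant in neurons, showed the largest difference of the panel. At ZT3 its normalized C_T was 15.16, 14.70, 14.72, 13.45, 14.93, 15.13 and 13.47 in replicates 1 to 7. At ZT5 it ran from 11.38 to 13.47 with a median of 11.38. All 7 ZT3 samples thus lay on the low-expression side of the ZT5 median, and the highest C_T at ZT5 met the 2 brightest ZT3 samples. The mean was 14.51 (SD 0.74, n = 7) at ZT3 and 12.13 (SD 0.93, n = 17) at ZT5, which gives a −ΔΔC_T of -2.38 (SE 0.37) and 5.2-fold higher expression at ZT5 (limma adjusted p = 6.98e-05; exact permutation p = 2.02e-05). The 6 lower-numbered ZT5 animals all had 11.38, the value that quantile normalization gives to the brightest gene of a sample. This value hides their spread, as their C_T before normalization ran from 9.29 to 11.19. The 11 higher-numbered ZT5 animals ran from 11.38 to 13.47 after normalization. Against these 11, the −ΔΔC_T was -1.97 (SE 0.37, limma adjusted p = 0.00393). Before normalization the groups did not overlap, with C_T values of 13.18 to 14.85 at ZT3 and 9.29 to 13 at ZT5. Rgs4 and Ptpn2 were the only 2 genes of the 145 (1.38%) whose C_T values before normalization did not overlap, and those values carry the lower sample medians of ZT3. With each sample centred on its own median C_T, 0 of the 145 genes had groups that did not overlap, and Rgs4 ran from -5.67 to -4.42 at ZT3 and from -11.24 to -5.63 at ZT5. The −ΔΔC_T of Rgs4 on that scale was -3.41, or 10.6-fold, against all ZT5 samples and -2.47 (adjusted p = 2.33e-04) against the higher-numbered ones.

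Rgs2, which acts on Gq signaling, was lower at ZT3 in the same direction. Its normalized C_T lay between 14.94 and 15.41 at ZT3, with a median of 15.36, and between 13.49 and 15.68 at ZT5, with a median of 14.31. The 7 ZT3 samples formed a narrow band inside the upper part of the wider ZT5 range. The −ΔΔC_T was -0.68 (SE 0.23), at an unadjusted p of 0.00619 and an adjusted p of 0.0787, and centring on the sample median gave -1.18 (adjusted p = 0.0174). Rgs6, which pairs with the G-protein subunit Gβ5 in neurons, was higher at ZT3 by 0.42 (SE 0.19, unadjusted p = 0.035, adjusted p = 0.282). It kept its direction and an unadjusted p of at most 0.05 in 11 of 16 other settings. Its p rose above the threshold in 3 of 24 omissions of single samples. The other 6 members of the family had p-values above the threshold, with −ΔΔC_T values from -0.08 to 0.27. Of the 9 Rgs genes, 3 (33.3%) thus passed the unadjusted threshold, 2 lower and 1 higher at ZT3, beside 13.8% of all genes, and the median of the family was -0.06, which became 0.24 with median centring. Against the higher-numbered ZT5 animals 2 of the 9 passed, beside 10.3% of all genes, and Rgs6 had 0.35 (limma unadjusted p = 0.0665). The lists of related genes used here overlap in part, and were chosen with results of these data known.

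**Figure D2:**
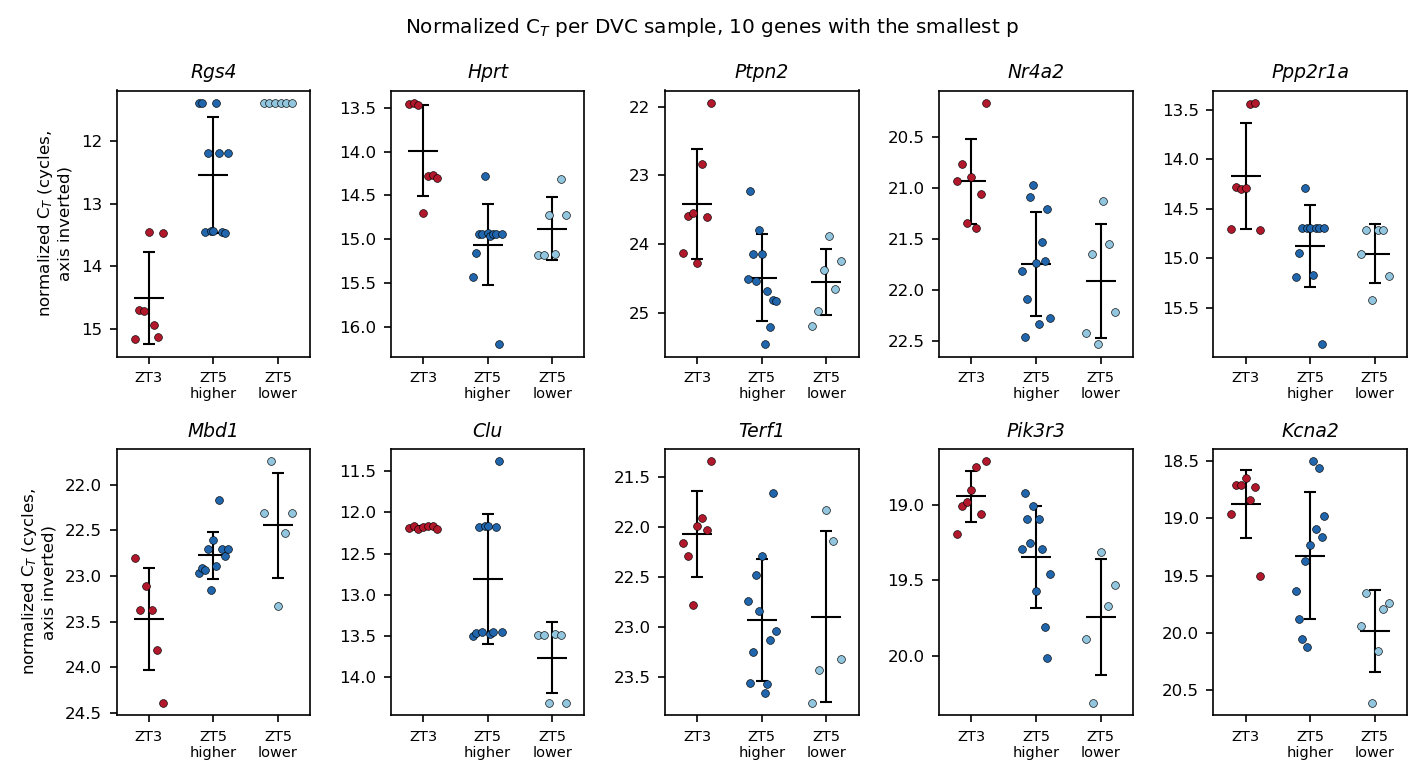
Normalized C_T of the 10 genes with the smallest limma p in each DVC sample at ZT3 (7, red), in the higher-numbered ZT5 animals (11, dark blue) and in the lower-numbered ZT5 animals (6, light blue), with bars for the mean and SD and an inverted axis, so that higher expression is up. For Rgs4 the ZT3 samples sit between 13.45 and 15.16, whereas all 6 lower-numbered ZT5 animals sit at 11.38. This is the normalized value of the brightest gene in any sample.

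Ptpn2, a tyrosine phosphatase that removes phosphate from Janus kinases and STAT proteins, was higher at ZT3. Its normalized C_T at ZT3 was 24.13, 23.59, 23.55, 24.28, 22.84, 23.60 and 21.94 in replicates 1 to 7. At ZT5 the values ran from 23.23 to 25.46, with a median of 24.54. All 7 ZT3 samples were on the high-expression side of the ZT5 median, and replicates 5 and 7 lay beyond the whole ZT5 range. The −ΔΔC_T was 1.09 (SE 0.28), or 2.13-fold (limma adjusted p = 0.0183; exact permutation p = 8.64e-04). Against the higher-numbered ZT5 animals it was 1.07 (SE 0.31, unadjusted p = 0.00235, adjusted p = 0.0675). Before normalization, C_T values were 21.83 to 23.03 at ZT3 and 23.93 to 26.21 at ZT5, without overlap. With samples centred on their median, the groups overlapped, at 2.24 to 5.00 and 4.66 to 6.88, and the −ΔΔC_T was 1.71 (adjusted p = 6.20e-04).

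Nr4a2 (Nurr1), an orphan nuclear receptor and immediate early transcription factor, was also higher at ZT3. The ZT3 samples had normalized C_T values of 20.93, 20.76, 21.34, 20.89, 21.39, 21.06 and 20.16. The ZT5 samples ran from 20.97 to 22.53, with a median of 21.73. The ZT3 values thus reached below the lowest ZT5 value in 4 of 7 animals, and none rose above the ZT5 median. The −ΔΔC_T was 0.87 (SE 0.22), or 1.83-fold (limma adjusted p = 0.0183; exact permutation p = 6.96e-04), and 0.81 (SE 0.23, adjusted p = 0.0675) against the higher-numbered ZT5 animals. Among the 6 immediate early and Nr4a transcription factors, 1 (16.7%) passed the unadjusted threshold, beside 13.8% of all genes. Egr1, an activity-regulated zinc finger factor, had a −ΔΔC_T of -0.05 (SE 0.35), and Jun had -0.16 (SE 0.20), with p-values above the threshold. Of the 7 other transcription factors and coactivators, 1 passed it, Elk1, a target of the MAP kinases, at -0.46 (SE 0.22, unadjusted p = 0.0467). Against the higher-numbered ZT5 animals Elk1 had -0.26 (unadjusted p = 0.279), and its p rose above the threshold in 14 of 24 omissions of single samples.

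Mbd1, which binds methylated CpG sites, was lower at ZT3. Of its 7 ZT3 reactions, 6 gave a value, with normalized C_T values of 22.80, 23.37, 23.11, 23.37, 23.81 and 24.39. The 16 ZT5 values ran from 21.74 to 23.33 with a median of 22.70. All 6 ZT3 values were on the low-expression side of the ZT5 median, and 4 lay beyond the ZT5 range. The −ΔΔC_T was -0.80 (SE 0.22, limma adjusted p = 0.0254; exact permutation p = 6.17e-04). It was -0.39 (unadjusted p = 0.107) when samples were centred on their median. Terf1, a protein of the telomere cap, went the other way. Its normalized C_T ran from 21.34 to 22.78 at ZT3 and from 21.66 to 23.76 at ZT5, with a −ΔΔC_T of 0.85 (SE 0.27, unadjusted p = 0.00359, adjusted p = 0.065), and centring on the median gave 1.27 (adjusted p = 0.0129). The 4 remaining genes of DNA methylation and chromosome maintenance had p-values above the threshold, from -0.49 for Dmap1 to 0.31 (SE 0.28) for Mgmt, a DNA repair protein. Against the higher-numbered ZT5 animals, 4 of these 6 genes passed the unadjusted threshold, beside 10.3% of all genes, with Mgmt at 0.68 (unadjusted p = 0.00798) and the DNA methyltransferase Dnmt3a at -0.46 (unadjusted p = 0.0401) besides Mbd1 and Terf1. After median centring, 1 of the 6 passed, Terf1.

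Hprt, a purine salvage enzyme often used as a reference gene, and Ppp2r1a, the scaffold subunit of protein phosphatase 2A, were among the brightest assays of the panel and were higher at ZT3 on the normalized scale. The normalized C_T of Hprt was 13.46, 13.44, 13.47, 14.70, 14.28, 14.27 and 14.30 at ZT3 and ran from 14.28 to 16.20 at ZT5, with a median of 14.94. That of Ppp2r1a was 14.71, 14.28, 14.30, 14.29, 13.44, 13.43 and 14.72 at ZT3 and ran from 14.29 to 15.87 at ZT5, with a median of 14.72. Many of these values repeat, because quantile normalization gives the same value to whichever gene holds a given rank in a sample. For the brightest ranks the steps are wide: in a fully measured ZT3 sample, rank 1 stood at 11.38, rank 2 at 12.17, rank 3 at 13.43 and rank 4 at 14.27, whereas ranks 60 to 90 were a median of 0.043 cycles apart. Rgs4 held rank 1, 2 or 3 in all 17 ZT5 samples, and ranks 3 to 7 at ZT3. Hprt held ranks 3 to 5 at ZT3 and ranks 4 to 12 at ZT5, and Ppp2r1a ranks 3 to 5 and 4 to 10.

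The −ΔΔC_T of Hprt was 1.01 (SE 0.21, limma adjusted p = 0.00315), and that of Ppp2r1a was 0.74 (SE 0.20, adjusted p = 0.023). Both depended on the scaling. Quantile normalization of the panel without Rgs4 gave 0.65 (adjusted p = 0.0998) for Hprt and 0.42 (adjusted p = 0.345) for Ppp2r1a. Centring on the sample median gave 0.07 (unadjusted p = 0.733) and 0.13 (unadjusted p = 0.356), and centring on the median of each assay set gave -0.09 and -0.03.

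Clu (clusterin), a secreted chaperone abundant in astrocytes, and Pebp1, a phosphatidylethanolamine-binding protein, followed the same pattern. Clu held rank 2 in all 7 ZT3 samples, with normalized C_T values of 12.17 to 12.20, and ranks 1 to 4 at ZT5, with values of 11.38 to 14.31. Pebp1 was the brightest gene in all 7 ZT3 samples, at 11.38, and in 7 of 17 ZT5 samples. Their −ΔΔC_T values of 0.96 (SE 0.30, unadjusted p = 0.00308) and 0.56 (SE 0.22, unadjusted p = 0.0165) became 0.16 and 0.08 without Rgs4 in the normalization. Centred on the sample median they were -0.20 (unadjusted p = 0.369) and 0.15 (unadjusted p = 0.513), so that the sign of Clu turned.

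**Figure D3:**
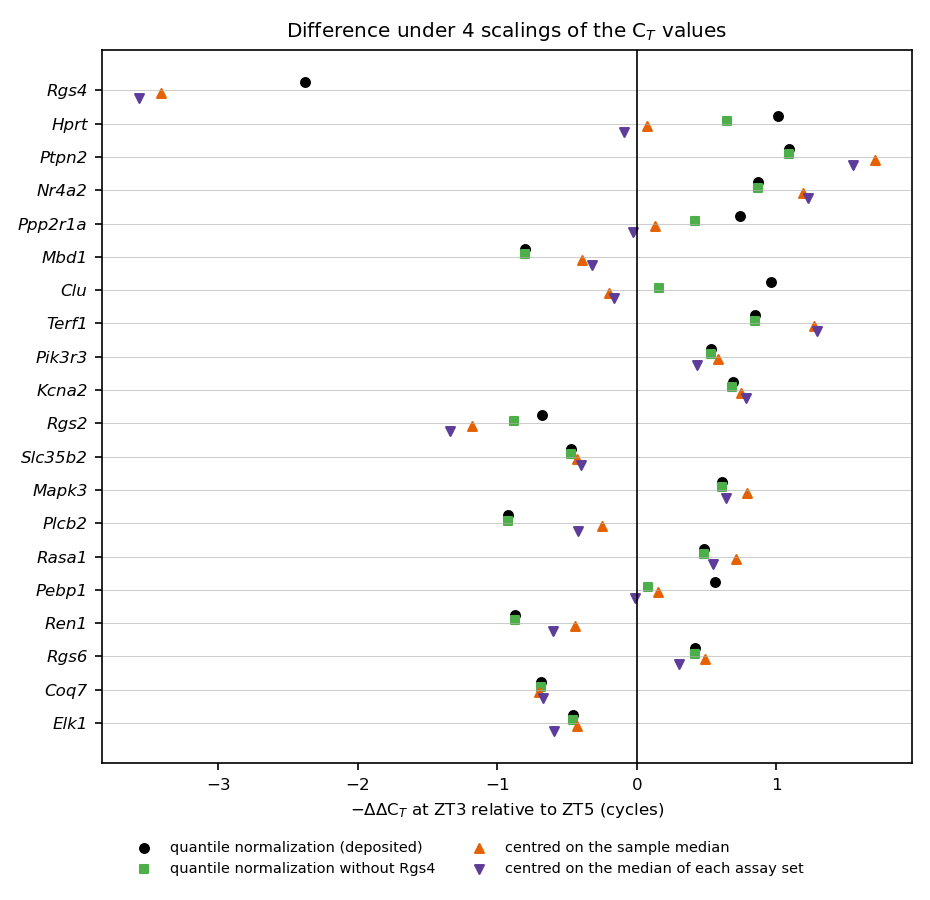
−ΔΔC_T at ZT3 relative to ZT5 in the DVC (horizontal axis, cycles) of the 20 genes under the deposited quantile normalization (black), quantile normalization without Rgs4 (green), centring on the sample median (orange) and centring on the median of each assay set (purple), with 1 point per gene and scaling. Hprt, Ppp2r1a, Clu and Pebp1 move to values near 0 once samples are centred on a median, whereas Rgs4 moves from -2.38 to -3.41.

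Centring on the sample median shifted the median of all genes to 0.14 and called 10 genes at the adjusted threshold (6.90%) and 24 at the unadjusted one (16.6%), of which 21 were higher at ZT3 (14.5%) and 3 lower (2.07%). The split between higher and lower genes, 12 to 8 on the quantile-normalized scale, thus differed between the scalings. Rgs4, Ptpn2 and Nr4a2 were called by both, at the adjusted threshold, and 11 genes were shared at the unadjusted one. Slc32a1, the vesicular GABA transporter, had a −ΔΔC_T of 0.29 (SE 0.20, unadjusted p = 0.173) on the quantile-normalized scale and 0.85 (adjusted p = 0.00584) after median centring. Crhr2, a receptor of corticotropin-releasing factor and urocortins, had 0.74 (SE 0.42, unadjusted p = 0.096) and 1.21 (adjusted p = 0.0417). Reactions of Slc32a1 failed in 0 of 7 ZT3 and 5 of 17 ZT5 samples, and those of Crhr2 in 0 of 7 and 4 of 17. The part of failed reactions in these differences was not tested.

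Of the 15 measured genes of the Ras and MAP kinase pathway, 12 had a −ΔΔC_T above 0, beside 80 of all 145 genes, and the median was 0.19, beside 0.02. Of the 15, 3 (20%) passed the unadjusted threshold, all of them higher at ZT3, beside 13.8% of all genes. Mapk3, the kinase ERK1, had normalized C_T values of 18.59 to 19.86 at ZT3 and 19.04 to 20.54 at ZT5, with a −ΔΔC_T of 0.61 (SE 0.21, unadjusted p = 0.00705, adjusted p = 0.0787). Rasa1, a GTPase-activating protein that switches Ras off, had 0.48 (SE 0.19, unadjusted p = 0.016). The third gene was Pebp1, whose call depended on the scaling. Its 0.56 became 0.08 (limma unadjusted p = 0.52) without Rgs4 in the normalization and 0.15 (unadjusted p = 0.513) with median centring. Against the higher-numbered ZT5 animals, the median of the 15 genes was 0.12 and 1 passed, beside 10.3% of all genes, Mapk3 at 0.42 (unadjusted p = 0.0461). After median centring their median was 0.31, beside 0.14 over all genes, and 4 passed, all higher at ZT3, where 14.5% of all genes passed in that direction.

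Of 8 genes of the PI3 kinase, Akt and Pak group, 7 had a −ΔΔC_T above 0 and 1 (12.5%) passed, with a median of 0.14, a share below the 13.8% of all genes. Pik3r3, a regulatory subunit of PI3 kinase, had normalized C_T values of 18.71 to 19.19 at ZT3 and 18.92 to 20.31 at ZT5, with a −ΔΔC_T of 0.53 (SE 0.17, unadjusted p = 0.00525, adjusted p = 0.0787). It kept its direction and an unadjusted p of at most 0.05 in the 16 other settings it was tested in, single left-out samples aside. All 5 ion channel genes had a −ΔΔC_T above 0, beside 80 of all 145 genes, with a median of 0.46, and 1 passed. This was Kcna2, a voltage-gated potassium channel subunit of axons, with 0.69 (SE 0.23, unadjusted p = 0.00597, adjusted p = 0.0787). Of its 7 ZT3 values, 6 lay between 18.65 and 18.96, and replicate 7 was at 19.50, while the ZT5 values ran from 18.50 to 20.61. Against the higher-numbered ZT5 animals, Kcna2 had 0.45 (SE 0.23, unadjusted p = 0.0572). Kcnj9, a subunit of G-protein-gated potassium channels, had the largest value of the group, 0.83 (SE 0.51, unadjusted p = 0.114).

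On the quantile-normalized scale, transmitter receptors were not among the genes that passed, which made up 13.8% of the panel. None of the 11 genes of glutamate receptors and their scaffolds and none of the 9 GABA-A receptor subunits passed the unadjusted limma threshold, and their medians were -0.01 and -0.06. The smallest p-values were those of Gria3, an AMPA receptor subunit, at 0.32 (SE 0.19, unadjusted p = 0.0967), and Grm5, a metabotropic receptor, at -0.34 (SE 0.24, unadjusted p = 0.171). In the GABA-A group they were those of Gabrr2 at -0.92 (SE 0.48, unadjusted p = 0.0696), measured in 5 of 7 ZT3 and 8 of 17 ZT5 samples, and Gabrg3 at 0.68 (SE 0.44, unadjusted p = 0.131). After median centring, 1 glutamate receptor gene passed, Gria3 at 0.49 (unadjusted p = 0.0306), and 2 GABA-A subunits, Gabrd at 1.24 (unadjusted p = 0.0213) and Gabrg3 at 0.89 (unadjusted p = 0.0495), beside 16.6% of all genes. Against the higher-numbered ZT5 animals, the NMDA receptor subunit Grin2d passed, at -0.45 (unadjusted p = 0.0423). The 4 genes of GABA synthesis and transport did not pass, with Gad1, which makes GABA, at 0.38 (SE 0.23, unadjusted p = 0.109) and Slc32a1 next. None of the 9 peptide, opioid and growth factor receptors passed on the quantile-normalized scale. Crhr2 came first among them and Crhr1, the other receptor of corticotropin-releasing factor, second at -0.61 (SE 0.38, unadjusted p = 0.124).

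**Figure D4:**
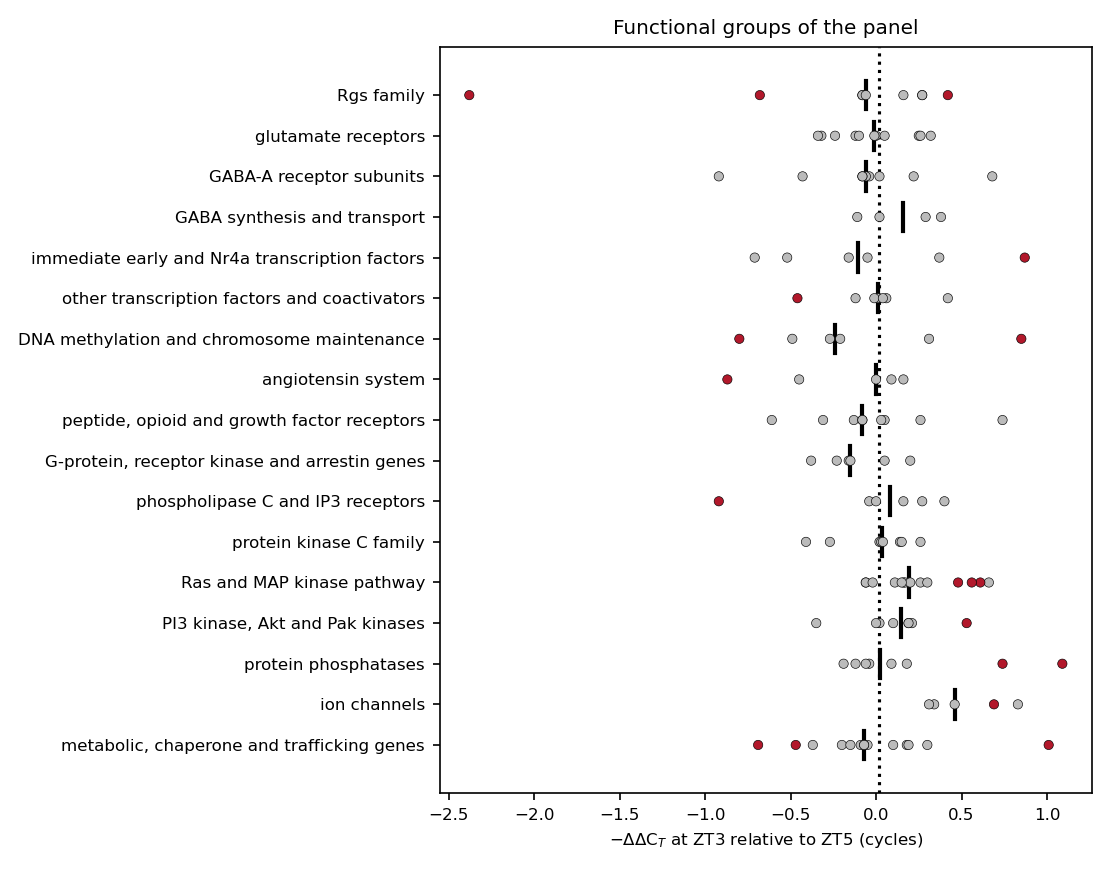
−ΔΔC_T at ZT3 relative to ZT5 (horizontal axis, cycles) of each member of 17 functional groups of the panel, with red points for an unadjusted limma p of at most 0.05, black bars for the group medians and a dotted line for the median of all 145 genes. The ion channels have the highest median, 0.46, and the Rgs family the widest range, from -2.38 to 0.42.

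Other groups held few or no genes that passed the unadjusted threshold, which 13.8% of all genes passed. Plcb2, a phospholipase C that Gq and Gβγ activate, had a −ΔΔC_T of -0.92 (SE 0.35, unadjusted p = 0.0148), 1 of the 6 phospholipase C and IP3 receptor genes (16.7%). After median centring it had -0.25 (unadjusted p = 0.472). Ren1, the renin gene, had -0.87 (SE 0.39, unadjusted p = 0.033), 1 of the 5 angiotensin genes (20%). Its ZT3 values were spread from 22.72 to 26.25, and 3 of 7 lay on the high-expression side of the ZT5 median. With the methods' t-test the p of Ren1 was 0.0516. Against the higher-numbered ZT5 animals Ren1 had -0.67 (limma unadjusted p = 0.115), and after median centring -0.44 (unadjusted p = 0.256). In both of these settings 0 of the 5 angiotensin genes passed. The 8 protein kinase C genes and the 6 genes of G-protein subunits, receptor kinases and arrestins held 0 that passed, with medians of 0.03 and -0.15. The smallest p-values there were those of Prkch at -0.41 (unadjusted p = 0.0563) and Prkci at -0.27 (unadjusted p = 0.222), and of Adrbk1 at -0.38 (unadjusted p = 0.0931) and Gnb1 at -0.23 (unadjusted p = 0.259). The identifier of the Gnb1 row belongs to Gnb4 in RefSeq, so which of the genes it measures is uncertain. Of 8 protein phosphatase genes, Ptpn2 and Ppp2r1a passed (25%) and the others lay between -0.19 for Ptpre and 0.18 for Ppp1cb. After median centring 1 of the 8 passed, Ptpn2, beside 16.6% of all genes. Of 14 metabolic, chaperone and trafficking genes, 21.4% passed. Hprt was higher at ZT3, while 2 were lower: Slc35b2, a transporter of the sulfate donor into the Golgi, at -0.47 (SE 0.16, unadjusted p = 0.00696), and Coq7, an enzyme of ubiquinone synthesis, at -0.69 (SE 0.32, unadjusted p = 0.04). The p of Coq7 was above the threshold in 12 of 17 other settings, the methods' t-test (p = 0.0558) among them, and in 9 of 24 omissions of single samples. After median centring 1 of the 14 genes passed, Slc35b2 at -0.43 (limma unadjusted p = 0.0304), beside 16.6% of all genes.

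In bulk tissue, fewer cells of a type and less RNA per cell cannot be told apart, so markers of cell types are given beside these values. Slc6a2, of noradrenergic neurons, had normalized C_T values of 20.91 to 23.00 at ZT3 and 20.95 to 22.64 at ZT5, with a −ΔΔC_T of -0.19 (SE 0.23, unadjusted p = 0.407). Of the 2 astrocyte markers, Clu was described above and Gabrg1 had -0.08 (SE 0.25, unadjusted p = 0.745). The microglial markers Ptgs1 and Plcg2 had -0.35 (unadjusted p = 0.141) and 0.27 (unadjusted p = 0.303), with Ptgs1 between 21.80 and 22.29 at ZT3 and between 20.39 and 22.27 at ZT5. Grin2c and Gabrd, taken as markers of granule cells of the neighbouring cerebellum, had 0.05 (unadjusted p = 0.788) and 0.22 (unadjusted p = 0.528). Both were also measured in the CeA, in 31 and 33 of its 33 samples. They are therefore not specific to granule cells in these data and cannot show whether cerebellar tissue was included. Of the 9 markers, 1, Clu, passed the unadjusted threshold on this scale, beside 13.8% of all genes. After median centring 3 passed, Slc32a1, Plcg2 and Gabrd, all higher at ZT3. On that scale 14.5% of all genes passed in that direction and 2.07% in the other. The part of the tissue's makeup in the differences above was not tested.

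Restricting ZT5 to the 11 higher-numbered animals left 2 genes at the adjusted threshold (1.38%), Rgs4 and Hprt, and 15 at the unadjusted one (10.3%), 9 higher at ZT3 (6.21%) and 6 lower (4.14%), of which 12 were among the 20. All 20 genes kept their direction. Ptpn2, Nr4a2, Mbd1 and Terf1 had an adjusted p of 0.0675 there, with −ΔΔC_T values of 1.07, 0.81, -0.70 and 0.86, close to those against all 17 ZT5 samples. These calls depended on the scaling too. With median centring in the same animals, 7 genes passed the adjusted threshold. Among them were Ptpn2 at 1.70 (limma adjusted p = 0.00351), Nr4a2 at 1.09 (adjusted p = 0.0161) and Terf1 at 1.29 (adjusted p = 0.0157). Hprt had 0.22 (unadjusted p = 0.209) and Mbd1 -0.31 (unadjusted p = 0.16) on that scale. Agtrap, a protein that binds the angiotensin receptor, and Adrbk1 (Grk2), a kinase that desensitizes receptors, had -0.45 (SE 0.22, unadjusted p = 0.0515) and -0.38 against all ZT5 samples, and -0.14 and -0.12 against the higher-numbered ones. Within ZT5, Agtrap was 0.88 higher (limma adjusted p = 0.0182) and Adrbk1 0.75 higher (adjusted p = 0.0522) in the lower-numbered animals than in the others. The part of animal number or of what went with it in the differences of these genes was not tested. Creb1, a transcription factor activated by cAMP signaling, had 0.42 (SE 0.36, unadjusted p = 0.252) against all ZT5 samples and 1.17 (unadjusted p = 0.00383, adjusted p = 0.0505) after median centring.

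The CeA of the same animals was used to ask whether a difference was particular to the DVC. For each of 7 ZT3 and 13 ZT5 animals with both regions, the DVC value was set against the CeA value, and these within-animal differences were compared between time points. In the CeA of ZT5 replicate 1 the first set of assays, which holds Rgs4, Hprt and Ptpn2, gave no values, so that the test rested on 11 ZT5 animals for Rgs4 and on 12 for Hprt and Ptpn2. Clu was the 1 gene of 143 (0.699%) that passed the adjusted threshold, and 7 (4.90%) passed the unadjusted one. Its −ΔΔC_T was 0.96 in the DVC and -0.14 (SE 0.24) in the CeA, and the regions differed by 1.12 (SE 0.26, limma adjusted p = 0.0416). Leaving out 1 animal at a time, 0 genes passed in 14 of 20 cases, with an adjusted p of up to 0.117 for the first gene. With samples centred on their median, that difference was -0.05, and quantile normalization of each region on its own left 0 genes at the adjusted threshold and 5 at the unadjusted one. In higher-numbered animals alone, 0 of 143 genes passed the adjusted threshold and 16 the unadjusted one. With higher against lower number as a factor, 0 and 11 passed. Nr4a2, Ptpn2 and Mbd1 had −ΔΔC_T values of 1.13 (SE 0.23), 0.96 (SE 0.18) and -0.91 (SE 0.18) in the CeA, each with a limma adjusted p of 0.00189, among 4 of 143 genes (2.80%) at the adjusted threshold there. Their differences between regions were -0.34 (SE 0.35), 0.22 (SE 0.29) and 0.02 (SE 0.32). The CeA values come from the same ZT3 animals, all higher-numbered, set against higher- and lower-numbered ZT5 animals. Time and animal number are thus confounded in the CeA too, and the CeA alone was not compared in higher-numbered animals. Rgs4 had -0.95 (SE 0.74, unadjusted p = 0.212) in the CeA, and its difference between regions was -1.06 (SE 0.68, unadjusted p = 0.136). For Hprt the regions differed by 0.86 (SE 0.28, unadjusted p = 0.00577, adjusted p = 0.365). For these genes other than Clu, a difference between regions was thus not shown by this test.

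**Figure D5:**
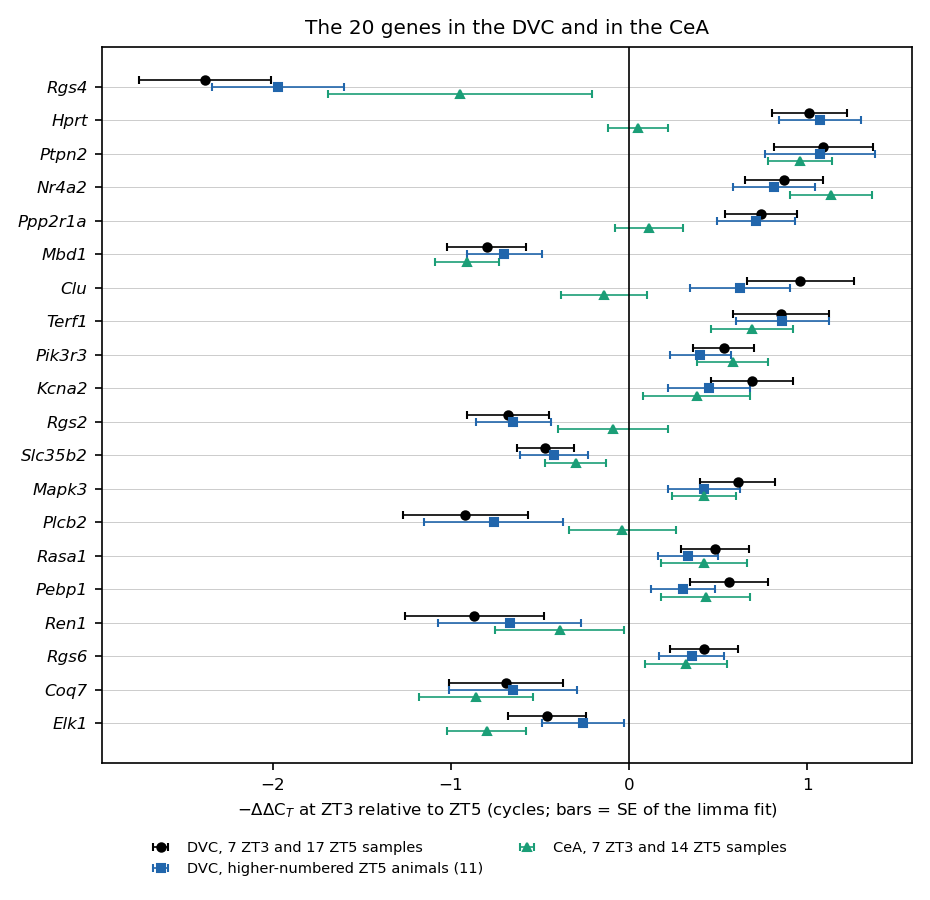
−ΔΔC_T at ZT3 relative to ZT5 (horizontal axis, cycles) of the 20 genes in the DVC against all 17 ZT5 samples (black), in the DVC against the 11 higher-numbered ZT5 animals (blue) and in the CeA (green), with bars for the SE of the limma fits. Nr4a2, Ptpn2 and Mbd1 have values of like size in both regions, whereas Clu is at 0.96 in the DVC and -0.14 in the CeA. The ZT3 animals are the same in both regions.

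ZT9 was compared with the same ZT5 samples, so the values stand side by side without a test of their likeness. The ZT9 animals included lower-numbered ones, whereas the ZT3 animals did not. Between ZT9 and ZT5, 11 of the 145 genes passed the adjusted threshold and 32 the unadjusted one. At ZT9 the −ΔΔC_T relative to ZT5 was -1.80 for Rgs4 (limma adjusted p = 0.00122), -0.94 for Rgs2 (adjusted p = 0.00122), 0.78 for Nr4a2 (adjusted p = 0.00326), 0.90 for Terf1 and -0.64 for Mbd1 (adjusted p = 0.00847 for each). Hprt had 0.20 (adjusted p = 0.463) and Ptpn2 0.58 (adjusted p = 0.0844) at ZT9. Rasa1 had -0.40 (unadjusted p = 0.0442) at ZT9 and 0.48 at ZT3.

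The promoters of the genes were searched for the palindromic E-box CACGTG, to which clock transcription factors bind, and for the palindromic cAMP response element TGACGTCA. The windows ran from 250 bases before to 50 bases after a RefSeq start in GRCr8, and 113 genes of the panel and 15 of the 20 had one. The E-box stood in 1 of these 15 windows (6.67%), in 11 of the 113 (9.73%) and in 6.42% of all 33469 promoters of the table. The cAMP response element stood in 0 of the 15, in 2 of the 113 (1.77%) and in 1.83% of all. The 1 match among the 20 genes was in Elk1, with the E-box starting 75 bases before the start used. This stretch, chrX:3693278-3693307 on the plus strand, lies inside the annotated gene, chrX:3692367-3709252, and so not upstream of the whole gene. It is shown with the E-box in capitals.
Elk1 E-box: cccacgagggccCACGTGagcgctggggaa
A match in this window is a description of the letters there and not of a bound site.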

How the data were processed

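The submitters measured reverse-transcribed, preamplified RNA of punched DVC and CeA tissue by microfluidic qRT-PCR. The authors deposited raw C_T values and quantile-normalized C_T values, both on the log2 scale of cycles. Renormalizing the 72 samples as 1 set with limma gave values within 4.99e-09 cycles of the deposited ones. A further table, of the authors' own means and differences, was not used. The animal number and region named in a column gave its sample, and separate animals are the replicates. Prkce shares its gene identifier with another row of the table, so its values are uncertain. A row misspelled in the normalized table was read as Kcna2 from its identifier.

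ZT3 and ZT5 were compared with limma 3.58.1 in R 4.3.3 (lmFit, eBayes) on normalized C_T values, for genes with at least 2 values in each group, and p-values were Benjamini-Hochberg adjusted over all genes tested. Single genes were also tested by exact two-sided permutation, with all 346104 splits of 24 samples. Regions were compared on within-animal differences. The number of animals and failed reactions limit the precision, and no counting error can be given. Other steps used Python 3.11.15, pandas 2.3.3 for tables, scipy 1.17.1 for adjustment, numpy 2.4.6 and matplotlib 3.10.9 for drawing. The procedure was tested on simulated data. Alternatives were other normalizations, complete genes, higher-numbered animals, animal number, higher or lower number as a factor, median C_T as a covariate, all DVC samples, a replicate block, other tests and leaving out each sample. Normalization without Rgs4, median centring in higher-numbered animals, and replicates 1 to 7 without a block were added after seeing the data.

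Genes were named if their unadjusted p was at most 0.05, with values per sample for the 10 smallest p, if the study names them for both regions, if their regions differed at the adjusted threshold, or if they led a list in which none passed. Mgmt, Slc32a1, Crhr2, Kcnj9, Dnmt3a, Grin2d, Gabrd and the extremes of lists were added after their values were seen. The comparison and the lists were chosen with earlier results of these data known.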

Additional observations from a re-analysis of the deposited data

Results flagged for a closer look

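ZT3 replicate 7 lay apart from the other 6 ZT3 samples for Kcna2, with a normalized C_T of 19.50 (Dixon's criterion at 95% for the gap to the nearest sample). This was 1 of 23 genes examined in this way, and chance marks about 1 in 20. The ZT3 to ZT5 difference of Clu differed between the DVC and the CeA by 1.12 (limma adjusted p = 0.0416), a value that median centring took to -0.05. Its cause was not tested.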

How the results depend on the processing

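Of the 6 genes at the adjusted threshold, Rgs4 passed it in the 16 other settings in which it was tested, Nr4a2 in 15 of 17 and Ptpn2 in 14 of 17, single left-out samples aside. The count was 10 with median centring, 12 with centring per assay set, 12 with no normalization, 2 in higher-numbered animals, 2 with higher against lower number as a factor and 3 with quantile normalization without Rgs4. The unadjusted count was 51 with no normalization, where the median of all genes moved to 0.73. Leaving out 1 sample gave 3 to 9 genes at the adjusted and 17 to 25 at the unadjusted threshold. The methods' t-test called 19 genes at their threshold and 6 after Benjamini-Hochberg adjustment. Allowing unequal variances (Welch), 27 and 9 genes were called, and 3 of the 9 were among the 6, with an adjusted p of 0.111 for Ptpn2 and Ppp2r1a and 0.14 for Mbd1.

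With the replicate number as a block, replicates 1 to 7 gave 25 genes adjusted and 35 unadjusted. The same samples without the block gave 26 and 36, so the choice of samples moved the count more than the block. Of the 7 ZT5 animals in it, 6 were lower-numbered and none of the ZT3 animals were, so that time and animal number are confounded there. Deviations of same-numbered samples correlated between -0.151 and 0.245 over 7 pairs, and 2 of the pairs exceeded 0.1. Among ZT5 replicates 1 to 7, 1 ZT3 sample correlated best with its own number. These values gave no sign that the numbers paired animals, but so few pairs cannot exclude it.

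The 1 gene that differed between regions became 0 with quantile normalization per region, median centring, centring per assay set, no normalization, higher-numbered animals, higher against lower number as a factor, the replicate block and a two-factor fit with the animal as a random block, and 0 to 1 when single animals were left out. Clu's difference between regions was -0.05 with median centring and -0.09 with no normalization.

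Signs turned as follows. Centring per assay set gave -0.09 for Hprt, -0.03 for Ppp2r1a, -0.16 for Clu and -0.01 for Pebp1. Median centring gave -0.20 for Clu, and -0.19 for Clu and 0.12 for Agtrap in higher-numbered animals. No normalization gave 0.21 for Mbd1, 0.17 for Slc35b2, 0.41 for Plcb2, 0.19 for Ren1, 0.17 for Elk1, 0.26 for Adrbk1 and 0.44 for Agtrap. Creb1 had -0.14 with the replicate block and -0.07 in the same samples without it. Apart from what the settings themselves change, the cause was not tested. Failed reactions and 7 ZT3 animals limit small differences.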

Other observations

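Reactions failed in at least 1 of the 24 DVC samples for 30 of the 145 genes. For 21 of these genes they failed at ZT5 only, for 3 at ZT3 only and for 6 at both. Gabrr2 failed in 2 of 7 ZT3 and 9 of 17 ZT5 samples, Dctn1 in 4 of 7 and 7 of 17, and Fosl1 in 2 of 7 and 6 of 17. The median SD over genes was 0.38 cycles at ZT3 and 0.53 at ZT5, and 36 of the 145 genes had the larger SD at ZT3. Within the 11 higher-numbered ZT5 animals it was 0.48, and without ZT5 replicate 17 it was 0.39 in the 10 left, with 75 genes of larger SD at ZT3.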
